A study of Homo sapiens with 3 samples.

Results

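The regions described here are the mitochondrial RNA clusters of a MATR3 PAR-CLIP experiment: every cluster that the deposited tables place on chrM, whatever its annotation. They number 227 of 115227 clusters, with 108 of 87230 in wild-type (WT) replicate 1, called WT rep1, 102 of 27155 in WT replicate 2 (WT rep2) and 17 of 842 in the MATR3 knockout (KO) library. PAR-CLIP, a crosslinking and immunoprecipitation method that uses a photoreactive nucleoside, recovers RNA bound to a protein after UV light has joined the pair, and contact sites carry T-to-C changes where crosslinked 4-thiouridine was read as C. The cells were HAP1, a near-haploid line derived from KBM-7 chronic myeloid leukaemia cells. The groups were Wild Type HAP1 cells, with 2 libraries, and HAP1 MATR3 KO cells, with 1 library, which the design uses as the negative control. All 3 were treated alike per the labels: RNase T1, which cuts after G, then recovery on anti-FLAG beads and from a blot at the position of MATR3. The labels record neither a tag on MATR3 nor the knockout allele, and give 1 catalogue number for the KO line. With 1 KO library no difference between genotypes has a replicate check, and no test was run on any.

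Mitochondrial DNA is copied from both strands into long RNAs that run through many genes, and the transfer RNAs (tRNAs) that lie between most genes are cut out to free the others. RNA of the plus strand, called the heavy strand transcript, carries both ribosomal RNAs (rRNAs), most tRNAs and all messenger RNAs (mRNAs) but that of MT-ND6. RNA of the minus strand, the light strand transcript, carries MT-ND6 and the remaining tRNAs, and is otherwise antisense to the genes of the plus strand and short-lived. Both transcripts start in the noncoding control region. MATR3 is a nuclear matrix protein with a pair of RNA recognition motifs, so RNA made inside mitochondria lies in another compartment than the protein's usual one.

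The clusters that carry most of the mitochondrial signal are shown first, because the results below turn on them. Sequences are the RNA strand from 5′ to 3′ in DNA letters, as deposited, with hg38 positions (the build named in the submitters' processing notes). For the WT rep2 clusters, capitals mark bases that also lay inside a WT rep1 cluster of the same strand.
MT-ND2, WT rep2, chrM:4924-4966, plus strand, 8882 reads: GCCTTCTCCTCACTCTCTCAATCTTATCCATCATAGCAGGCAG
MT-ND2, WT rep2, chrM:4832-4878, plus strand, 1403 reads: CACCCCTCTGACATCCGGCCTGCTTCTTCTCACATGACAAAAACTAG
MT-CYB, WT rep2, chrM:15403-15467, plus strand, 3705 reads: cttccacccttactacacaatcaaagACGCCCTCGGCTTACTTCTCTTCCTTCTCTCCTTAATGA
MT-ND5, WT rep2, chrM:12564-12730, plus strand, 3389 reads: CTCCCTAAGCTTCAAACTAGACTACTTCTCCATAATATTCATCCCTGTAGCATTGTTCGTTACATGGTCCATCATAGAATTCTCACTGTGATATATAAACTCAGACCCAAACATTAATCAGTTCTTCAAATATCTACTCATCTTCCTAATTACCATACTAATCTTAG
MT-CO3, WT rep2, chrM:9869-9910, plus strand, 2059 reads: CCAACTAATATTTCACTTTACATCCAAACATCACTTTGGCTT
MT-ND3, WT rep2, chrM:10326-10367, plus strand, 1374 reads: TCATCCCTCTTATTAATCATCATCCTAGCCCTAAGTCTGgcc
control region, WT rep2, chrM:356-406, minus strand, 1266 reads: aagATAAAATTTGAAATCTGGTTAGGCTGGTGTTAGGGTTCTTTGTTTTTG
For the KO clusters, capitals mark bases that also lay inside a cluster of either WT library on the same strand.
MT-CYB, KO, chrM:15439-15466, plus strand, 4512 reads: CTTACTTCTCTTCCTTCTCTCCTTAATG
MT-CYB, KO, chrM:15277-15301, plus strand, 692 reads: ATTCTTTACCTTTCACTTCATCTTG
MT-RNR2, KO, chrM:2221-2288, plus strand, 635 reads: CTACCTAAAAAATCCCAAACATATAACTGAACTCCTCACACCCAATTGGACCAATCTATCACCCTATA
antisense to MT-ND4, KO, chrM:11319-11347, minus strand, 579 reads: tcatattaagttgttggctcaggagtttg
MT-CO3, KO, chrM:9821-9849, plus strand, 558 reads: ACTTCACGTCATTATTGGCTCAACTTTCC
The leading KO sequence lies wholly inside the leading MT-CYB clusters of both WT libraries, while the antisense KO sequence, all in lower case, shares no base with a WT cluster.

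Mitochondrial clusters were few but held many reads. They held 68820 reads in WT rep1, 37640 in WT rep2 and 9671 in KO, and in each library the single cluster with the most reads was mitochondrial. That cluster had 13859 reads in WT rep1, against 1512 for the strongest cluster elsewhere. In WT rep2 the values were 8882 and 3878, and in KO 4512 and 3377. A median mitochondrial cluster had 175 reads in WT rep1, 101.5 in WT rep2 and 292 in KO, and a median cluster of the other chromosomes 20, 39 and 242. Mitochondrial clusters thus stood far above the rest in the WT libraries and close to the rest in KO.

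The order of WT and KO in total mitochondrial signal depended on how the lists were compared. Over whole lists, chrM held 2.50% ± 0.116 (SD, n = 2) of cluster reads in WT and 4.31% in KO. The 95% Wilson interval of the KO value, 4.23 to 4.40, counts each read as independent. The tables show no molecular identifiers, so the interval is too narrow where reads are copies. By distinct read sequences the shares were 1.99% in WT and 3.81% in KO. When each WT list was limited to its 842 clusters with the most reads, as many as KO has, chrM held 21.8% of reads in WT rep1 and 12.7% in WT rep2, both above KO. Those lists held 50, 33 and 17 mitochondrial clusters. The cut kept WT clusters of at least 182 reads in WT rep1 and 179 in WT rep2, while the KO list went down to 5. A cut by reads favours clusters with many reads, as the mitochondrial ones of WT were. The lists were thus matched in length and not in read cutoff. As a share of clusters over whole lists, chrM made up 0.124% in WT rep1, 0.376% in WT rep2 and 2.02% in KO, and in the limited lists 5.94%, 3.92% and 2.02%, so that order turned as well. Without MT-CYB, chrM clusters held 2.17% ± 0.111 (SD, n = 2) of all cluster reads in WT and 1.99% in KO, so over whole lists KO lay above WT with this gene counted and not without it. Clusters named for MATR3 itself numbered 53 of 87230 in WT rep1, 26 of 27155 in WT rep2 and 0 of 842 in KO. At such small shares a list as short as that of KO could hold none, so the 0 does not check the knockout. The counts do not measure MATR3 expression. The tables hold only reads inside called clusters, so sequencing depth is not known. Reads per distinct read sequence in mitochondrial clusters were 9.34, 22.8 and 34.8 in WT rep1, WT rep2 and KO. The part of this difference in the comparison with KO was not tested.

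The mRNAs held 74.6% of mitochondrial cluster reads in WT rep1, 88.2% in WT rep2 and 66.1% in KO. Clusters lay in 11, 13 and 5 of the 13 mRNA genes. The mRNAs of complex I, the enzyme that takes electrons from NADH, held 47.6% and 60.0% in the WT libraries and 6.48% in KO. Complex III, whose only mitochondrial gene is MT-CYB (cytochrome b), held 12.8% and 13.4% in WT and 53.8% in KO. Complex IV, cytochrome c oxidase, held 13.9% and 13.5% in WT and 5.85% in KO. Complex V, the ATP synthase, held 0.246% and 1.32% in WT and had no KO cluster. The WT libraries therefore lay close together for complexes III and IV and apart for complex V, and KO lay outside the WT values for complexes I, III and IV. These are shares of 1 total, so a high share of 1 class lowers the others. In KO 1 MT-CYB cluster alone held 46.7% of mitochondrial cluster reads.

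**Figure D1:**
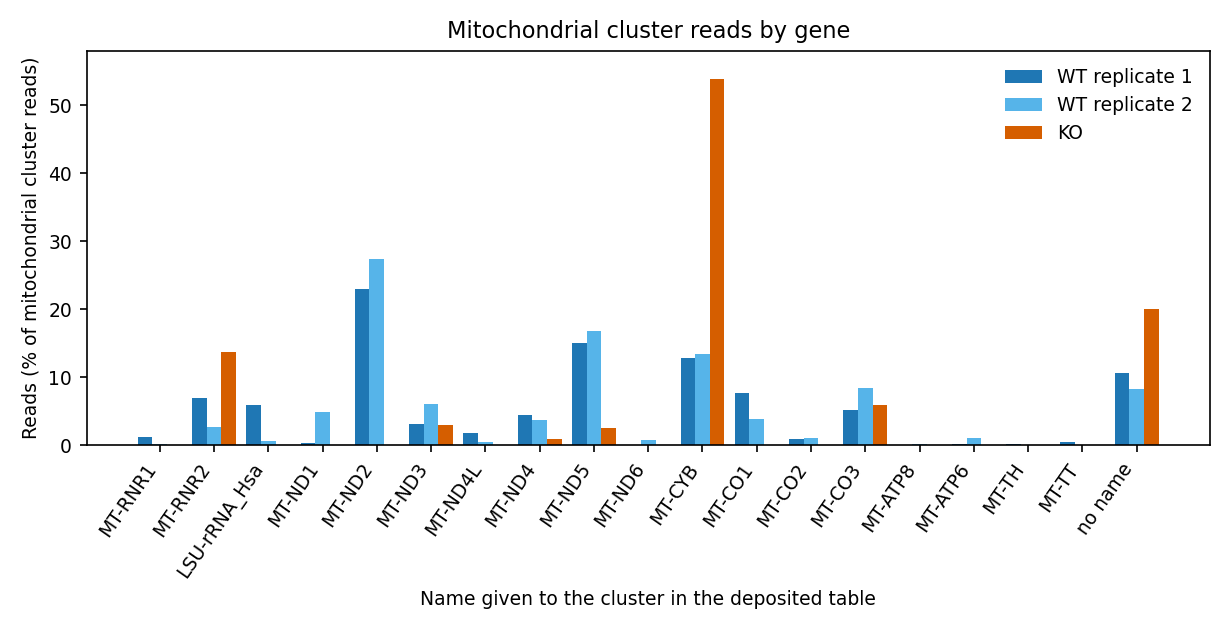
Bars give reads in clusters of each name as a percent of all mitochondrial cluster reads of that library, 1 bar per library with no error bars, and "no name" groups clusters without a gene name in the tables. MT-ND2 leads both WT libraries at 22.9% and 27.3% and has no KO bar, while MT-CYB leads KO at 53.8%.

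MT-ND2, a core subunit of the membrane arm of complex I, had the most reads of any mitochondrial gene in both WT libraries. Its clusters held 15764 reads in WT rep1 and 10292 in WT rep2, or 15129 and 9877 reads per kb of gene, and KO had no MT-ND2 cluster. In WT rep1, 87.9% of these reads lay in 1 cluster, chrM:4822-4994. In WT rep2, 86.3% lay in chrM:4924-4966, which sits wholly within it, 454 to 496 nt from the first base of the gene. A second WT rep2 cluster, chrM:4832-4878, also fell within that WT rep1 cluster. The next strongest WT rep1 cluster of the gene, chrM:5294-5353 with 1755 reads, had no partner in WT rep2.

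MT-ND5, another membrane arm subunit of complex I and the longest mitochondrial mRNA gene, had the most nt inside WT clusters. It had 15 clusters with 10367 reads in WT rep1, 16 with 6307 in WT rep2 and 2 with 239 in KO. Its WT clusters covered 1351 and 843 nt, not adjusted for gene length. The strongest lay 348 to 477 nt from the first base of the gene in WT rep1 (4469 reads) and 227 to 393 nt from it in WT rep2 (3389 reads), so they overlapped by 46 nt. Both KO clusters overlapped a cluster of each WT library.

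MT-CYB was the leading gene of KO and the third by reads in both WT libraries. Its clusters held 8840 reads in WT rep1, 5045 in WT rep2 and 5204 in KO, which gives 7748, 4422 and 4561 reads per kb of gene. In number of reads KO thus lay between the WT libraries, although its whole list is far shorter. In distinct read sequences KO lay below both, with 122 against 901 in WT rep1 and 233 in WT rep2. The leading cluster spanned chrM:15429-15687 in WT rep1 (5697 reads), chrM:15403-15467 in WT rep2 (3705 reads) and chrM:15439-15466 in KO (4512 reads), and the 28 nt of the KO cluster are common to all 3. The second KO cluster, chrM:15277-15301, lay inside a WT rep1 cluster of 1697 reads and had no partner in WT rep2.

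**Figure D2:**
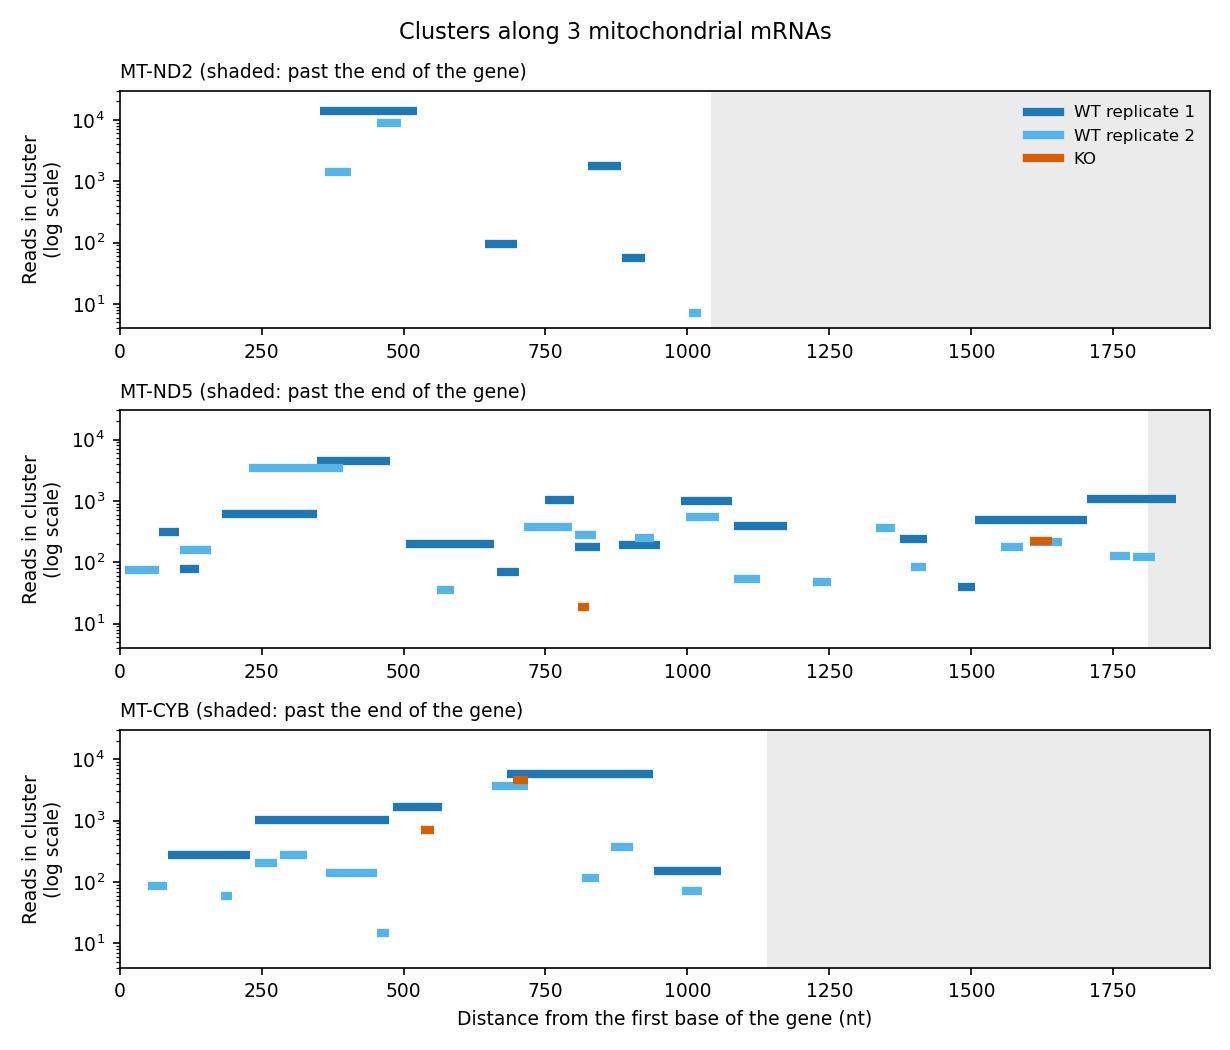
Each line is 1 cluster, drawn from its start to its end in nt from the first base of the gene (horizontal axis) at its number of reads (vertical log axis), for MT-ND2, MT-ND5 and MT-CYB. The strongest clusters of both WT libraries overlap in each gene, KO has none in MT-ND2, and the KO cluster with 4512 reads in MT-CYB lies where the strongest WT clusters overlap.

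Among the other complex I mRNAs, MT-ND3 had 2117 reads in WT rep1, 2282 in WT rep2 and 292 in KO. The gene is short, and its 6119 and 6595 reads per kb were the third highest of the mRNAs in WT rep1 and the second highest in WT rep2. MT-ND4 had 3021, 1421 and 96 reads, and its KO cluster came from 1 distinct read sequence. MT-ND1 ran the other way between the WT libraries, with 237 reads in WT rep1 and 1835 in WT rep2, of which 1694 lay in 1 cluster, chrM:3780-3814, that WT rep1 lacked. MT-ND4L had 1233 and 165 reads and no KO cluster. MT-ND6, the mRNA of the minus strand, had no cluster in WT rep1, 290 reads in 2 clusters of WT rep2 and none in KO.

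Of the complex IV mRNAs, MT-CO1, which encodes the catalytic subunit, had 5293 reads in WT rep1, 1477 in WT rep2 and no KO cluster. MT-CO2, which encodes the subunit that takes electrons from cytochrome c, had 679, 414 and 0 reads. MT-CO3 had 3597, 3186 and 566 reads, and was the only complex IV gene with KO clusters. In complex V, MT-ATP6 had 169 and 423 reads and MT-ATP8 0 and 75 reads in the WT libraries. Across the 13 mRNA genes the WT libraries ranked reads per kb of gene alike, with Spearman's rho 0.839 and Pearson's r 0.672 on log2(reads per kb + 1). This describes genes within 2 libraries, which share their transcripts and are not independent replicates.

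The rRNAs held a smaller share. MT-RNR2, the large subunit rRNA, had 4801 reads in WT rep1, 1016 in WT rep2 and 1332 in KO. MT-RNR1, the small subunit rRNA, had 826, 74 and 0 reads. Both together made up 8.18%, 2.90% and 13.8% of mitochondrial cluster reads. A further 4118 reads in WT rep1 and 241 in WT rep2 lay within MT-RNR2 under a repeat name, LSU-rRNA_Hsa, and with them the rRNA share was 14.2%, 3.54% and 13.8%, so WT rep1 then stood close to KO.

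Only 2 of the 22 tRNA genes gave a cluster its name, both in WT rep1: MT-TH (histidine) with 176 reads and MT-TT (threonine) with 304. Both clusters reached beyond their gene. The MT-TT cluster, chrM:15888-16080, began on the first base of the gene and ran 193 nt. The MT-TH cluster, chrM:12057-12147, lay mostly in the end of MT-ND4 and reached only 9 nt past the first base of MT-TH. A start on the first base of a gene was rare: 3 of 108 clusters in WT rep1 (MT-RNR2, MT-ND4L and MT-TT), 1 of 102 in WT rep2 (MT-RNR2 again, at the same base) and 0 of 17 in KO. Clusters that touched more than 1 gene of their strand numbered 2, 2 and 0.

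Plus strand clusters dominated in every library. They numbered 74, 84 and 12 in WT rep1, WT rep2 and KO, against 34, 18 and 5 on the minus strand. The minus strand held 10.3% and 8.90% of mitochondrial cluster reads in the WT libraries (mean 9.63% ± 1.02, SD, n = 2) and 18.7% in KO (95% Wilson interval 17.9 to 19.5). This interval too counts each read as independent. By distinct read sequences the shares were 11.4% in WT and 21.6% in KO. WT clusters covered 39.9% of the plus strand in rep1 and 20.8% in rep2, and 17.6% and 4.32% of the minus strand.

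Most minus strand clusters lay opposite genes of the plus strand, where the light strand transcript is antisense. These numbered 29, 13 and 5, with 4475 reads in WT rep1, 1588 in WT rep2 and 1808 in KO. In KO they were all of the minus strand. The strongest KO ones lay opposite MT-ND4 (chrM:11319-11347, 579 reads) and MT-ATP8 (chrM:8375-8405, 512 reads). A plus strand cluster of the same library lay across from 22 of the 34 minus strand clusters in WT rep1, 6 of 18 in WT rep2 and 1 of 5 in KO.

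The minus strand cluster with the most reads in both WT libraries lay in the control region, next to the promoter of the light strand. It spanned chrM:322-403 with 2161 reads in WT rep1 and chrM:356-406 with 1266 reads in WT rep2, sharing 48 nt, and made up 30.3% and 37.8% of minus strand reads. KO had no cluster outside the genes on either strand. Of the weaker clusters there, chrM:16382-16441 with 136 reads in WT rep1 overlapped chrM:16400-16424 with 46 reads in WT rep2. The others were in 1 library each, such as chrM:16452-16569 with 249 reads in WT rep1 and chrM:57-90 with 161 reads in WT rep2.

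Mitochondrial clusters of the WT libraries overlapped each other far more often than other clusters did. Counting an overlap of at least 1 nt on the same strand, 51 of 108 mitochondrial clusters of WT rep1 (47.2%, 95% Wilson interval 38.1 to 56.6) met one of WT rep2, where 6.00% of all WT rep1 clusters did. In the other direction 70 of 102 did (68.6%, interval 59.1 to 76.8), against 19.5% of all WT rep2 clusters. Overlapping clusters held 85.5% of the mitochondrial reads of WT rep1 and 86.1% of those of WT rep2. The sharing lay on the plus strand, with 47 of 74 and 66 of 84 clusters, while 4 of 34 and 4 of 18 on the minus strand were shared.

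Mitochondrial clusters were also longer and had more reads, and WT rep1 alone covered 39.9% of the plus strand. Median length was 64 nt against 33 nt on other chromosomes in WT rep1, and 36.5 against 32 nt in WT rep2. Among clusters with at least 200 reads, 38 of 49 mitochondrial clusters of WT rep1 (77.6%) and 46.0% of other clusters were shared. In WT rep2 the values were 25 of 32 (78.1%) and 46.4%. Among clusters with at least 50 and under 200 reads the mitochondrial counts were 13 of 42 (31.0%) against 15.6% elsewhere in WT rep1, and 30 of 44 (68.2%) against 22.6% in WT rep2. Among those of 5 to 49 reads they were 0 of 17 against 4.19% in WT rep1, too few clusters to compare, and 15 of 26 (57.7%) against 16.0% in WT rep2. Mitochondrial clusters were thus shared more often within every read class but the lowest of WT rep1. The classes did not match length: with at least 200 reads in WT rep1, medians were 102 nt on chrM and 37 nt elsewhere. Overlap from length or coverage alone was not tested. Of 72 overlapping pairs, the WT rep2 cluster lay wholly inside its partner in 54, while 9 pairs had the same start and 2 the same end. The deposited mode positions of paired clusters were a median of 44.5 nt apart, and within 10 nt in 13 of the 72 pairs. An overlap thus often did not mean the same peak.

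Most KO mitochondrial clusters overlapped a WT cluster by at least 1 nt. Of the 17, 14 overlapped a WT cluster (82.4%, 95% Wilson interval 59.0 to 93.8), where 6.53% of all KO clusters did. With an overlap of at least 10 nt, or of at least 50% of the shorter cluster, the share was 70.6%. At 1 nt all 12 plus strand clusters overlapped, and 2 of the 5 on the minus strand. WT clusters covered 39.9% of the plus strand in WT rep1 and 20.8% in WT rep2. Overlap from this coverage alone was not tested. Against single libraries the counts were 11 of 17 for WT rep1 and 9 of 17 for WT rep2. The 3 without a WT partner were antisense to MT-CO3 (chrM:9318-9363, 184 reads), MT-ND4 (chrM:11319-11347) and MT-ND5 (chrM:12650-12682, 119 reads), with 9.12% of KO mitochondrial reads. A cluster's share of its library's cluster reads was higher in KO than in each WT library for 13 of the 14. The KO list is shorter, so such shares move with the length of the list.

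T-to-C changes set the WT mitochondrial clusters apart. The median share of a cluster's reads that carried a T-to-C change was 58.5% in WT rep1, 68.9% in WT rep2 and 96.8% in KO, against 94.1%, 97.5% and 96.8% on other chromosomes. The WT mean on chrM was 63.7% ± 7.34 (SD, n = 2), below the KO value by more than the difference between the WT libraries. Over clusters with at least 3 converted positions, of which KO has 5, the median was 63.3% in WT and 71.0% in KO. These KO clusters stood at 7.95% and 17.3% (both MT-CYB), 71.0%, 96.5% and 97.1%. The KO median over so few clusters therefore depends on MT-CYB. On other chromosomes the WT mean was 95.8% ± 2.39, which spans the KO value. Clusters with fewer than 50% such reads numbered 28 of 108 in WT rep1 (25.9%), where 4.16% of all clusters did so, and 17 of 102 in WT rep2 (16.7%), against 3.95%. In KO they were 2 of 17 (11.8%), against 11.6%.

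In the WT libraries clusters with at least 200 reads had lower T-to-C shares than those with 5 to 49, on chrM and elsewhere, and within each read class the mitochondrial median was the lower one. With at least 200 reads the medians on chrM and elsewhere were 58.5% and 69.7% in WT rep1, and 58.9% and 80.4% in WT rep2. With 5 to 49 reads they were 65.9% and 95.5%, and 77.9% and 100%. With at least 50 and under 200 reads they were 56.3% and 77.2%, and 76.5% and 97.2%. From the lowest to the highest class the gap narrowed in WT rep1 and stayed of similar size in WT rep2. In KO the medians for at least 200 reads were 95.8% on chrM and 96.5% elsewhere.

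**Figure D3:**
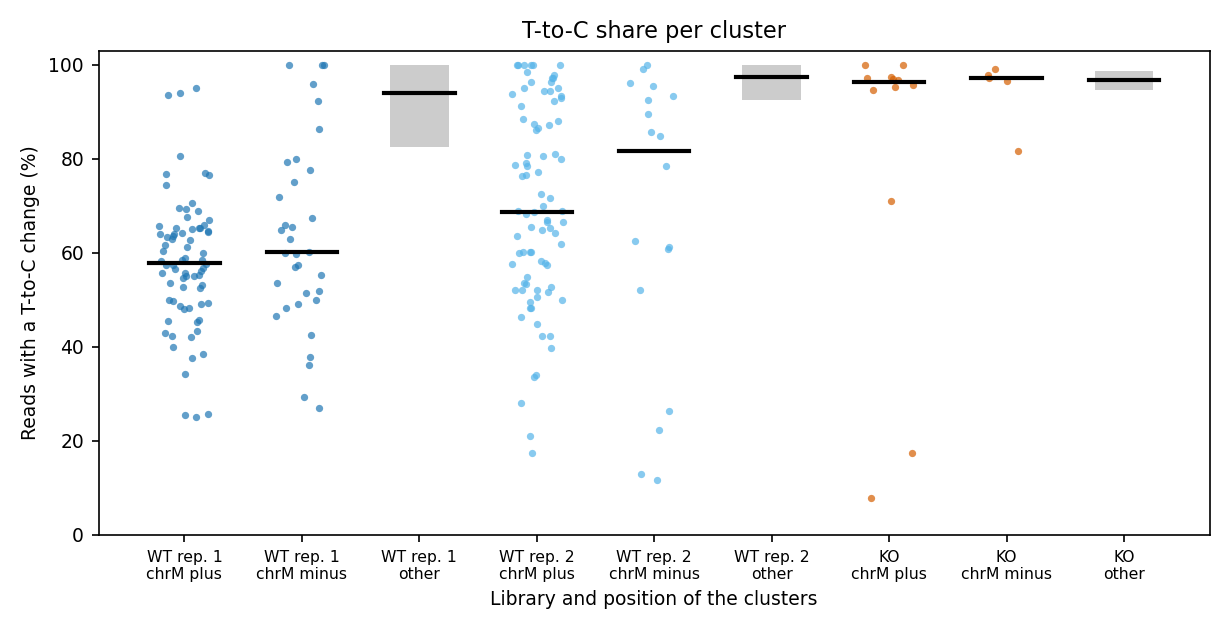
Points are single mitochondrial clusters by strand and library, placed by the percent of their reads with a T-to-C change, and black lines are medians. Grey boxes run from the first to the third quartile for clusters of other chromosomes: WT mitochondrial medians on the plus strand, 57.9% and 68.7%, lie below the boxes, and 2 KO points lie at 7.95% and 17.3%.

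MT-CYB was the exception in KO. Its 2 clusters had T-to-C changes in 17.3% and 7.95% of reads, and 75.8% and 88.3% of their reads had no mismatch. The 15 other KO clusters lay between 71.0% and 100%. The leading MT-CYB clusters of WT rep1 and WT rep2 had 57.5% and 53.6%. These values are for whole clusters of 259 and 65 nt, against 28 nt in KO. The deposited mode positions of these WT clusters lay 154 nt apart, so the values do not compare 1 site. Weighted by reads, KO mitochondrial clusters stood at 50.8%, below WT (57.1% ± 0.648, SD, n = 2), and without MT-CYB at 91.3%, above WT (56.9% ± 1.16), so the direction turned with that gene. Of the 14 KO clusters that overlapped a WT cluster, 11 had a higher T-to-C share than each WT cluster they met. A further 2 had a lower one (both in MT-CYB), and 1, in MT-RNR2, lay between.

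Conversions were spread over more positions in the WT mitochondrial clusters. At least 1 read was converted at 53.1% of the T positions in WT rep1 and 42.1% in WT rep2, against 21.6% and 18.1% on other chromosomes, and in KO the values were 29.9% and 24.1%. The median number of converted positions was 8, 4 and 2 on chrM, and 12 of the 17 KO clusters had exactly 2, the smallest number in the tables. Clusters with more reads offer more chances to see a converted position. Of all T events in reads, 6.22% ± 0.523 (SD, n = 2) were converted in WT mitochondrial clusters and 7.80% ± 0.305 in other WT clusters. In KO these were 4.52% and 9.27%, and 9.89% on chrM without MT-CYB.

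The sequences differed from other clusters in base composition, as the strands of mitochondrial DNA do. Plus strand clusters had 11.4% G and 27.1% T in WT (means of 2 libraries), and minus strand clusters had 29.9% G and 30.7% T. Clusters of other chromosomes had 10.0% G and 41.0% T. The clusters ended in G, the base after which RNase T1 cuts, in 59.3%, 77.5% and 58.8% of cases on chrM, against 73.5%, 94.5% and 72.4% elsewhere.

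**Figure D4:**
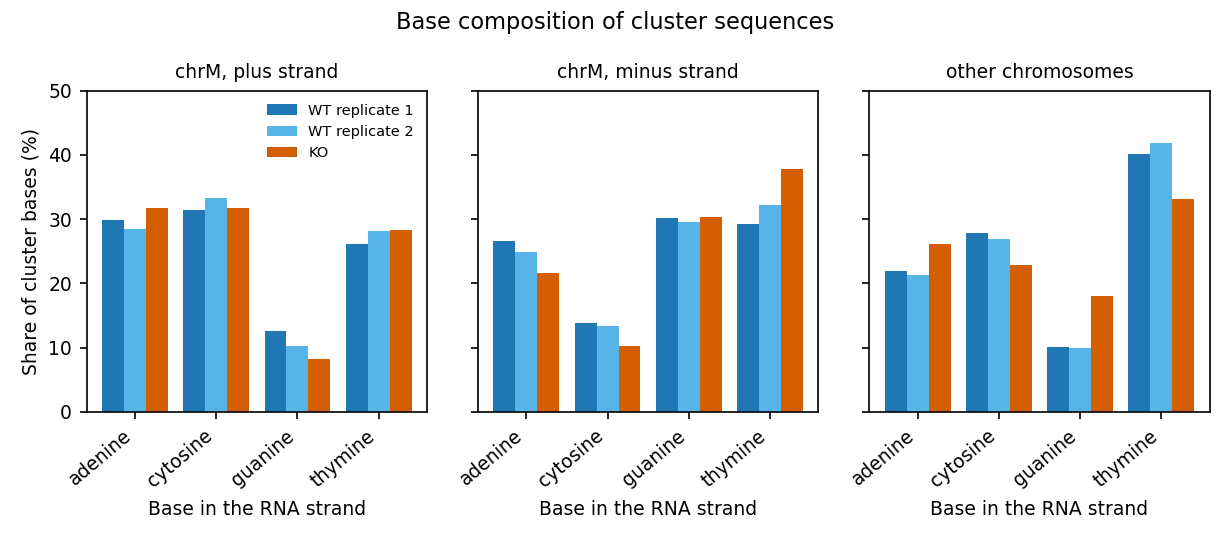
Bars give the share of each base in cluster sequences, on the RNA strand, for each library. Thymine is near 41.0% in WT clusters of other chromosomes and 27.1% on the mitochondrial plus strand, and guanine is 29.9% on the mitochondrial minus strand.

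Short T-rich words were rarer per kb in WT mitochondrial clusters than in other WT clusters. The mitochondrial clusters also had less T (WT means 27.9% and 41.0%), and the rates were not adjusted for base composition. The words ATCTT, which MATR3 is known to favour, TTCTT and TTTCT were counted on the RNA strand only, and matches of different words can overlap. ATCTT occurred 1.36 and 1.44 times per kb of mitochondrial cluster sequence in the WT libraries, against 4.59 and 5.33 times per kb elsewhere. It was in 10.2% and 4.90% of mitochondrial clusters and in 14.7% and 15.6% of others. On the plus strand of WT rep1, where mitochondrial clusters are longer, it was in 14.9% of mitochondrial and 14.8% of other clusters. TTCTT was in 15.7% and 11.8% of mitochondrial clusters and in 30.3% and 31.6% of others, and occurred 2.20 and 3.61 times per kb in WT mitochondrial clusters, against 11.6 and 13.1. TTTCT was in 11.1% and 8.82%, against 32.0% and 32.9%, and occurred 1.36 and 2.17 times, against 11.7 and 12.9. In KO all 3 words were also rarer per kb on chrM, but ATCTT had only 1 match there and TTCTT 2, in 563 nt. ATCTT occurred 1.78 times per kb on chrM and 2.39 elsewhere, TTCTT 3.55 and 4.04 times, and TTTCT 0 and 4.81 times. On the plus strand alone ATCTT and TTCTT went the other way. ATCTT stood at 2.65 on chrM and 1.81 elsewhere, and TTCTT at 5.29 and 4.25, from the same few matches. TTCTT was in 2 of 17 KO mitochondrial clusters (11.8%) and 11.3% of others, and TTTCT in 0 of 17 and 14.2%. No minus strand cluster held ATCTT in any library. The leading MT-ND2 sequence above holds ATCTT, as do the MT-ND5 sequence and the weaker KO sequence of MT-CYB. A match describes the letters of these clusters only.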

How the data were processed

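Each of the 3 libraries came as 1 table of clusters, which the authors called per library and not on pooled reads. Per the file headers, the deposited columns hold counts of reads, of distinct read sequences and of T events with and without conversion, and, for each cluster, the fraction of its reads that T-to-C changes mark. The deposited tables also hold a score for each cluster, which was not used. The submitters' processing notes name cutadapt 1.8.3, Bowtie 1.1.2, hg38 and GRCh38.p5, with no role stated; the cluster caller and its filters are not given in the sources used here. The weakest clusters had 5 reads and 2 converted positions, so a gene with no cluster has no level and no upper limit. How reads that also match nuclear copies were placed is not given.

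Clusters on chrM were taken by position, and gene names were checked against RefSeq (GRCh38.p14), used for names, lengths and neighbours: all 164 clusters with a mitochondrial gene name touched that gene on its strand. Shares are percent of cluster reads or of clusters, with 95% Wilson intervals. Intervals on reads count each read as independent. The column for reads that end in G was near 0 for minus strand clusters of every chromosome, where their sequences mostly end in G, so the last base of the sequence was used. The overlap procedure was tested on simulated data. Analyses used Python 3.11.15, numpy 2.4.6, pandas 2.3.3, scipy 1.17.1 and matplotlib 3.10.9.

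The members, gene lists and words were chosen with earlier results of these data known. Every mitochondrial gene with a cluster was to be accounted for, with full values for those found in both WT libraries or in WT and KO. Nothing in the labels says whether the WT replicates were separate cultures. No test across clusters or genotypes was run. Alternatives were a minimum of 10 reads or 3 converted positions, distinct read sequences, an overlap of 10 nt or 50%, equal list lengths, medians, and each WT replicate left out. Those without MT-CYB and with LSU-rRNA_Hsa counted as rRNA, and the values by read class, were chosen after seeing the data.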

Additional observations from a re-analysis of the deposited data

How the results depend on the processing

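Of 50 alternative values, 30 moved by less than the spread between WT replicates or the counting interval. This leaves out the 12 WT means with 1 of the 2 libraries removed, which cannot move by more than that spread. The chrM share of reads with at least 3 converted positions became 4.81% in WT and 6.37% in KO; it was 1.99% and 3.81% by distinct read sequences, and 2.18% and 2.04% with MT-CYB removed from the total as well, where the order turned. With WT lists limited to the length of the KO list by reads, which favours clusters with many reads, it was 17.2% in WT. The chrM share of clusters, 0.250% in WT and 2.02% in KO, became 0.682% in WT with at least 3 converted positions and 4.93% in limited lists, above KO; with 1 library left out it was 0.124% to 0.376%. The minus strand share was 11.4% in WT and 21.6% in KO by distinct sequences, and 13.7% in KO with 3 converted positions. The T-to-C share of T positions became 8.53% in WT and 12.1% in KO as a median over clusters, where KO lay above WT, and in KO 2.62% with 3 converted positions and 9.89% without MT-CYB. With 3 converted positions the KO median T-to-C share per cluster was 71.0%, against 63.3% in WT, and the KO rRNA share 9.39%; by distinct sequences the latter was 17.6%. The share of KO clusters that overlapped a WT cluster was 52.9% to 64.7% with 1 WT library left out. Leaving out a WT replicate gives no value for sharing between WT libraries. KO values rest on 17 clusters made of 278 distinct read sequences.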

Other observations

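Transcripts of nuclear genes that act on mitochondrial RNA were looked up for comparison. Of 27 such genes, 21 had a cluster in WT rep1 (77.8%), 14 in WT rep2 (51.9%) and 1 in KO (3.70%). Of 20039 protein-coding RefSeq genes, 42.4%, 29.1% and 2.99% had one. Introns held 169 of 177 clusters on the list in WT rep1 (95.5%) and 61 of 65 in WT rep2 (93.8%), against 84.2% and 83.4% of all clusters outside chrM. LRPPRC, whose protein stabilises mitochondrial mRNAs, had the most, with 63 clusters and 4342 reads in WT rep1, 30 and 2555 in WT rep2, and none in KO. MTERF3, a regulator of mitochondrial transcription and ribosome assembly, had 15 and 3 clusters, and MTPAP, the mitochondrial poly(A) polymerase, had 7 and 4. The KO cluster was in an intron of TFB1M, which encodes an rRNA methyltransferase, with 299 reads. Gene length and expression were not matched between the list and other genes.

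Clusters named for nuclear pseudogene copies of mitochondrial genes numbered 5 in WT rep1 with 411 reads, 2 in WT rep2 with 235 reads and 0 in KO. Their reads equalled 0.597% and 0.624% of the mitochondrial cluster reads of those libraries. MTND4P12 on chromosome 5 was the only copy found in both, with 132 and 130 reads.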
